A study of Mus musculus with 20 samples.

Results

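The 9 transcripts described here encode lysosomal proteases of mouse bone marrow-derived macrophages: the cathepsins Ctsa, Ctsb, Ctsc, Ctsd, Ctsh, Ctsl, Ctss and Ctsz, and legumain (Lgmn). They were taken by symbol from a deposited table of reads per RefSeq transcript, with the transcript of the highest total count kept for each symbol, and are 9 of 24342 symbols in that table. All 9 passed the filter on low counts and stand among the 12013 genes tested. Marrow of C57BL/6 mice was grown for 7 to 8 days with 15% L929-conditioned medium, which supplies the growth factor M-CSF, and RNA was sequenced from 20 libraries in 6 groups. Cells given 1 µM SGC0946, an inhibitor of the histone H3 methyltransferase DOT1L, throughout differentiation were left unstimulated (SGC0946, 4 libraries), stimulated with 10 ng/mL LPS, a bacterial lipopolysaccharide, for 3 h (SGC0946+LPS, 3 libraries), or given 2 µM GW3965, an agonist of the sterol-sensing receptor LXR, for 17 h (SGC0946+GW3965, 3 libraries). The matching cells grown with the solvent DMSO made up the groups DMSO (4 libraries), DMSO+LPS (3) and DMSO+GW3965 (3). Neither the mice nor the cells carried a transgene or a deletion according to the labels, and replicate numbers 1 to 4 stand for mice 1 to 4 in a deposited sample sheet.

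Cathepsins are made as inactive precursors, carried from the Golgi to endosomes and lysosomes by receptors that bind mannose-phosphate tags or by sortilin, and matured there at acid pH. They degrade ingested and internal proteins. In macrophages and other antigen-presenting cells some of them also trim the invariant chain and antigens for loading on MHC class II, and several can be secreted and cleave matrix proteins. Cystatins and some serpins inhibit them.

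Library depth was 8.17 to 13.33 M counts (M standing for 1e+06) in the table of 1 transcript per symbol. Macrophage markers were abundant in every library: the summed level of 7 markers was 5922 to 7059 CPM (reads per 1e+06 reads of a library, with library totals scaled by the TMM method) in SGC0946 cells and 6015 to 6436 CPM in DMSO cells. The 8 markers of neutrophils and their precursors summed to 2.08 to 7.77 CPM in SGC0946 cells and 30.8 to 41.6 CPM in DMSO cells, and the 3 erythroid markers were at 0 in all groups. Mice 2 and 4 stood apart in the SGC0946 arm. With mice 2 and 4 left out of every group, 235 genes instead of 1048 were called between SGC0946 and DMSO in unstimulated cells. Only mice 1 and 3 then remained in each group, so all fits without mice 2 and 4 also had fewer libraries. The part of that in lost calls was not tested. Values without mice 2 and 4 are given for some of the results. The word reanalyzed stands in the titles of 6 libraries, which are replicates 1 to 3 of DMSO and all 3 of DMSO+GW3965.

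Levels of different genes were compared as deposited RPKM, which is per transcript length. Ctsd, the main aspartic protease of lysosomes, was highest at 7863 ± 522 RPKM in SGC0946 cells and 7828 ± 133 RPKM in DMSO cells (SD, n = 4 each), which ranked it 2 and 3 among all 24342 symbols. The cysteine protease Ctsb followed at 4126 ± 304 RPKM in SGC0946 cells and 4478 ± 98.3 RPKM in DMSO cells. Ctss, the cysteine protease that makes the last cuts in the invariant chain, stood at 2809 ± 163 RPKM in SGC0946 cells and 2287 ± 194 RPKM in DMSO cells. These 3 genes were among the 13 most abundant symbols in both unstimulated groups. Below them came Lgmn, an endopeptidase that cuts after asparagine and processes other cathepsins, at 837 ± 66.7 RPKM in SGC0946 cells and 883 ± 51.1 RPKM in DMSO cells, and the carboxypeptidase Ctsz at 653 ± 36.7 RPKM in SGC0946 cells and 670.4 ± 13.6 RPKM in DMSO cells. Ctsa, a serine carboxypeptidase that also protects lysosomal neuraminidase and galactosidase, was at 423 ± 20.7 RPKM in SGC0946 cells and 417 ± 5.54 RPKM in DMSO cells. The cysteine endopeptidase Ctsl was at 347 ± 17.9 RPKM in SGC0946 cells and 308 ± 21.3 RPKM in DMSO cells. The lowest were the aminopeptidase Ctsh, at 129 ± 24.4 RPKM in SGC0946 cells and 104 ± 7.04 RPKM in DMSO cells, and Ctsc, a dipeptidyl peptidase that activates serine proteases of granules, at 27.6 ± 2.05 RPKM in SGC0946 cells and 25.5 ± 1.41 RPKM in DMSO cells.

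**Figure D1:**
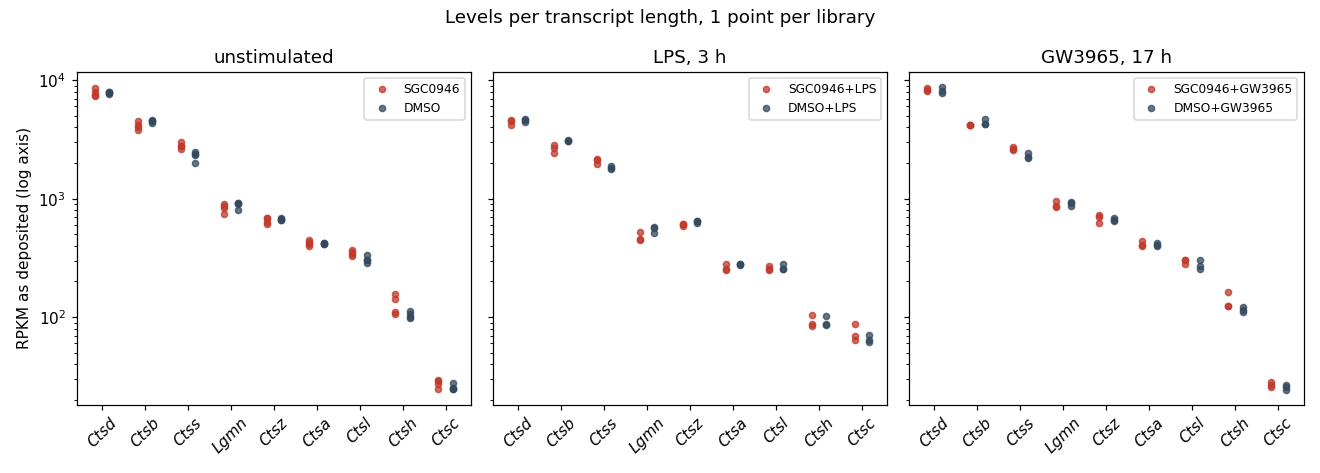
Deposited RPKM (log axis) of the 9 transcripts, 1 point per library, with SGC0946 groups in red left of DMSO groups in dark blue; panels are unstimulated, LPS and GW3965 cells. Ctsd to Ctsc descend in the same order in both unstimulated groups, and after LPS Ctsz lies above Lgmn.

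In both unstimulated and both GW3965 groups the libraries of neighbouring genes in this order did not overlap. After LPS, Ctsz ranked above Lgmn, with 602 ± 11.7 against 479 ± 42.5 RPKM in SGC0946+LPS cells and 642 ± 12.96 against 552 ± 34.7 RPKM in DMSO+LPS cells (SD, n = 3 each). The libraries of Ctsa and Ctsl then overlapped in both arms, as did those of Ctsh and Ctsc in SGC0946+LPS cells. Together the 9 transcripts took 5.18 ± 0.20% of counts in SGC0946 cells and 5.18 ± 0.10% in DMSO cells, 3.37 ± 0.09% in SGC0946+LPS cells and 3.44 ± 0.04% in DMSO+LPS cells, and 5.21 ± 0.05% in SGC0946+GW3965 cells and 5.17 ± 0.21% in DMSO+GW3965 cells.

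In unstimulated cells, growth with SGC0946 was accompanied by more transcript of the invariant-chain protease Ctss and, by a smaller margin, of Ctsl. None of the 9 was called lower. These 2 of 9 passed the test, against 8.72% of all genes tested called in either direction, 4.55% higher and 4.18% lower. The test was edgeR's quasi-likelihood F test with Benjamini-Hochberg adjustment over all genes tested, with a gene called at an adjusted p under 0.05; changes are log2 fold changes with 1 SE. The median change of the 9 was 0.03, and that of all genes was -0.00.

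Ctss stood at 3632, 3885, 3594 and 3944 CPM in SGC0946 cells of mice 1 to 4, against 3202, 3060.1, 3192 and 2715 CPM in DMSO cells. Every SGC0946 library was above every DMSO library, and the ratio was above 1 in 4 of 4 mice. The change was 0.31 ± 0.06 (edgeR adjusted p = 0.0030). The gap was widest in mouse 4, whose DMSO library was the lowest of its group, and without mice 2 and 4 the change was 0.18 (edgeR adjusted p = 0.227). With the 3 DMSO libraries titled reanalyzed left out, the change was 0.47. The 1 DMSO library then left was that of mouse 4, the lowest of its group for Ctss.

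Ctsl, which like Ctss is a cysteine endopeptidase, stood at 1204, 1174, 1212 and 1242 CPM in SGC0946 cells, against 1140.1, 1047, 1067 and 1002 CPM in DMSO cells. These groups did not overlap either. The change was 0.18 ± 0.06 (edgeR adjusted p = 0.0443). The call was lost when any single library other than DMSO replicate 1 was left out of these 8, and without mice 2 and 4 the change was 0.13 (edgeR adjusted p = 0.465).

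Ctsh, which removes single residues from the start of peptides, was at 170.3, 235, 175 and 245 CPM in SGC0946 cells, against 167, 154, 182 and 161 CPM in DMSO cells. Mice 2 and 4 gave the 2 high SGC0946 values, and mice 1 and 3 lay within the range of DMSO cells. The difference was 0.31 ± 0.12, which missed the threshold (edgeR adjusted p = 0.102). It passed without SGC0946 replicate 1 (0.39, edgeR adjusted p = 0.0390) and with limma voom (0.31, adjusted p = 0.0446), and without mice 2 and 4 it was -0.01 (edgeR adjusted p = 0.978).

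Ctsb ran the other way in every mouse, at 18853, 19581, 18379.6 and 20815 CPM in SGC0946 cells, against 20609.6, 20165, 21716 and 21292 CPM in DMSO cells. The groups overlapped, and the difference of -0.11 ± 0.05 missed the threshold (edgeR adjusted p = 0.199). The other 5 transcripts differed by -0.07 (Lgmn) to 0.12 (Ctsc), and none passed the test. Ctsd, the most abundant, was at 15189 ± 647 CPM in SGC0946 cells and 15034 ± 343 CPM in DMSO cells (SD, n = 4 each).

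**Figure D2:**
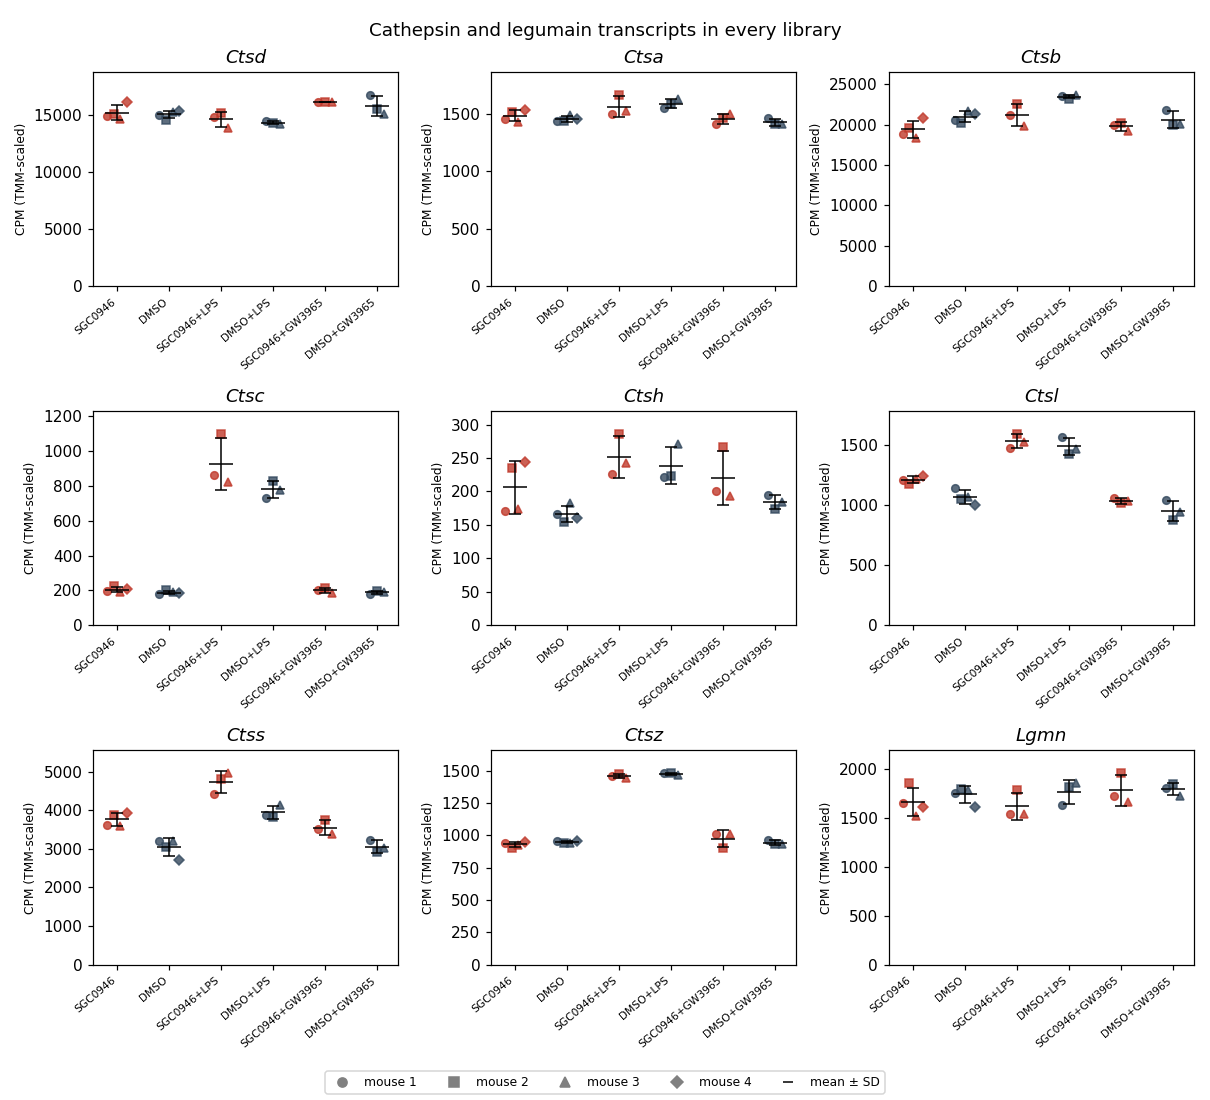
TMM-scaled CPM of each transcript in every library, with SGC0946 (red) left of DMSO (dark blue) in each condition, 1 symbol per mouse, and the mean with 1 SD in black. Ctss libraries of SGC0946 cells lie above those of DMSO cells in all 3 conditions, and Ctsc is highest in the LPS groups, at 926 ± 148 CPM in SGC0946+LPS cells and 778 ± 50.0 CPM in DMSO+LPS cells.

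The window of 250 bases before the RefSeq start of Ctss is shown because this transcript gave the largest called difference between the arms. RefSeq windows on GRCm38.p6 were found for 7 of the 9 genes and were searched on both strands for the letters of 7 motifs. Ctss lies on chromosome 3, plus strand, at chr3:95526536-95526785. Capitals mark 2 matches: the core of the ISRE, an element bound by interferon-regulatory factors (GAAA repeated after any 2 bases), 21 to 12 bases before the start, and TATAAA read on the minus strand, 233 to 228 bases before it.
Ctss: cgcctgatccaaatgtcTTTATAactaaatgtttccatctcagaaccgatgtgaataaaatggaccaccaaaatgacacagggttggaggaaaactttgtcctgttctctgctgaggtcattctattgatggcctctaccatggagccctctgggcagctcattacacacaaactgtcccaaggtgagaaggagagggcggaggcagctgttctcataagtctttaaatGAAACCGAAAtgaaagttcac
Of 32851 windows of this length over all genes, 2.98% held this ISRE core and 12.4% held TATAAA. No other member window held the ISRE core. The remaining motifs were kappaB sites, AP-1 sites, a PU.1-type motif and the CLEAR element, and none of these was found in the Ctss window.

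After LPS for 3 h, Ctss was again higher in cells grown with SGC0946, and it was the only member called, 1 of 9 against 7.13% of all genes tested (3.86% higher and 3.26% lower). Its level was 4419, 4819.8 and 4964 CPM in SGC0946+LPS cells of mice 1 to 3, against 3891, 3815 and 4146 CPM in DMSO+LPS cells. The groups did not overlap. The change was 0.26 ± 0.07 (edgeR adjusted p = 0.0269). It missed the threshold when SGC0946+LPS replicate 2 or 3 or DMSO+LPS replicate 1 or 2 was left out (edgeR adjusted p = 0.0730, 0.110, 0.0899 and 0.126), and without mice 2 and 4 (0.22, edgeR adjusted p = 0.0703).

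Ctsc was at 861, 1096 and 822 CPM in SGC0946+LPS cells, against 729, 829 and 776 CPM in DMSO+LPS cells. SGC0946+LPS replicate 2 was the highest library of all, replicate 3 lay just under the highest DMSO+LPS library, and the ratio was above 1 in 3 of 3 mice. The difference of 0.25 ± 0.09 missed the threshold (edgeR adjusted p = 0.105), but with the mouse as a block it was 0.24 and passed (edgeR adjusted p = 0.0146). Without SGC0946+LPS replicate 2 it was 0.11 (edgeR adjusted p = 0.493).

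Ctsb was at 21170.3, 22505 and 19798 CPM in SGC0946+LPS cells, against 23503, 23212 and 23674 CPM in DMSO+LPS cells. The groups did not overlap and all 3 mice were lower with SGC0946, yet the difference of -0.15 ± 0.06 missed the threshold (edgeR adjusted p = 0.135). Without mice 2 and 4 it was -0.21 and passed (edgeR adjusted p = 0.0386), as the single member then called. The remaining 6 members differed by -0.13 (Lgmn) to 0.08 (Ctsh).

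With GW3965, none of the 9 members was called between SGC0946 and DMSO, against 3.64% of all genes tested (2.24% higher and 1.40% lower). DESeq2 and limma voom also called none, and 1 member had an unadjusted p under 0.05. That member was Ctss, at 3518, 3755 and 3377 CPM in SGC0946+GW3965 cells, against 3236, 2921 and 3017 CPM in DMSO+GW3965 cells. The groups did not overlap, and the difference was 0.22 ± 0.07 (edgeR adjusted p = 0.0988). Ctsh was at 201, 267 and 193 CPM in SGC0946+GW3965 cells and 194, 174 and 185 CPM in DMSO+GW3965 cells, with mouse 2 again the high value. All 3 DMSO+GW3965 titles and no SGC0946+GW3965 title carry the word reanalyzed, so the inhibitor and whatever that word stands for cannot be told apart here.

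**Figure D3:**
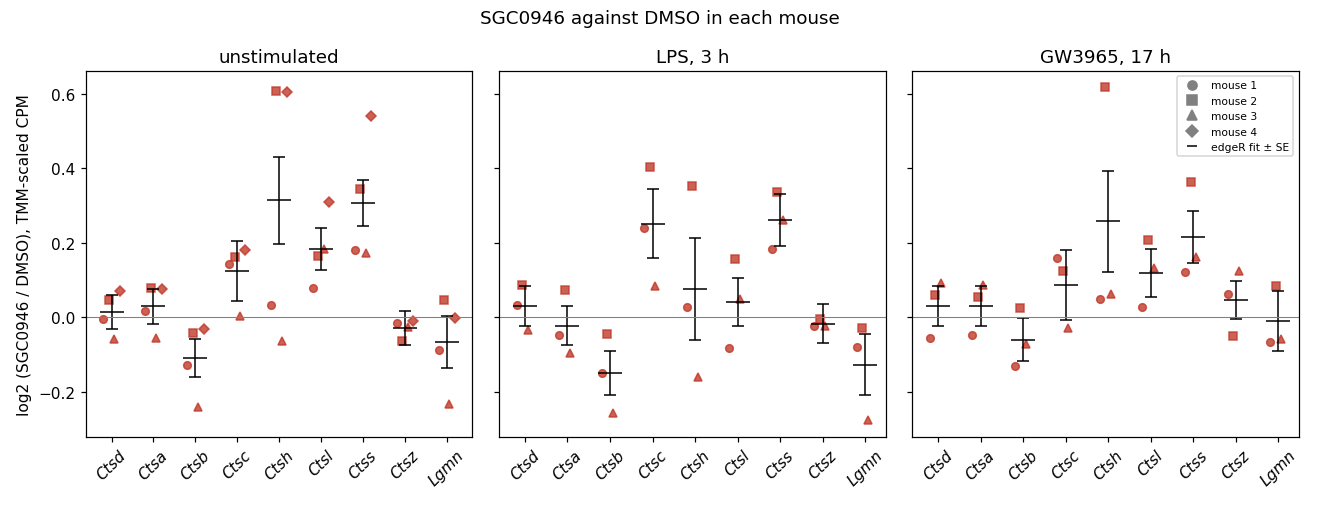
Log2 ratio of SGC0946 to DMSO in each mouse (red symbols, TMM-scaled CPM), with the edgeR fit and 1 SE in black, in unstimulated, LPS and GW3965 cells. Ctss lies above 0 in every mouse and condition, and Ctsh is at 0.61 in mice 2 and 4 of unstimulated cells and 0.62 in mouse 2 with GW3965, while mice 1 and 3 lie near 0.

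Some other transcripts of antigen processing were also called higher with SGC0946. Of 8 genes of MHC class II processing tested, 5 were called higher with SGC0946 in unstimulated cells, 5 after LPS and 2 with GW3965. None was called lower. Of all genes tested, 4.55%, 3.86% and 2.24% were called higher in these comparisons. The median change of the 8 was 0.74, 0.66 and 0.71, and that of all genes -0.00, -0.00 and 0.00. The list was chosen with earlier results of these data known, so its counts and medians are no independent test. In unstimulated cells Ciita, the master activator of MHC class II genes, rose by 1.33 ± 0.20 (edgeR adjusted p = 2.6e-04), and Cd74, the invariant chain that Ctss cuts, was at 289 ± 63.1 CPM in SGC0946 cells and 147 ± 27.9 CPM in DMSO cells, a change of 0.98 ± 0.18 (edgeR adjusted p = 0.0016). Without mice 2 and 4, 1 of the 8 was called, and the change of Cd74 was 0.53 (edgeR adjusted p = 0.161). The 6 dendritic cell markers, cells that also carry Ctss and MHC class II, summed to 21.4 to 32.1 CPM in SGC0946 cells and 11.7 to 18.9 CPM in DMSO cells, to 28.0 to 41.3 CPM in SGC0946+LPS cells and 17.1 to 26.6 CPM in DMSO+LPS cells, and to 16.1 to 22.7 CPM in SGC0946+GW3965 cells and 9.83 to 18.3 CPM in DMSO+GW3965 cells. Most of these sums was Itgax, at 25.0 CPM in SGC0946 cells and 14.4 CPM in DMSO cells on average, which macrophages carry too. The other listed markers averaged 1.80 CPM or less in every group and went both ways. After LPS, Zbtb46 averaged 0.80 CPM in SGC0946+LPS and 0.29 CPM in DMSO+LPS cells. Ccr7 averaged 0.99 CPM in SGC0946+LPS and 1.80 CPM in DMSO+LPS cells, and Xcr1 1.35 and 1.74 CPM. The part of these markers in the Ctss result was not tested, and more cells of a type and more RNA per cell cannot be told apart in bulk samples.

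Stimulation with LPS for 3 h raised Ctsc by a larger factor than any other member, to 4.52-fold in SGC0946+LPS over SGC0946 cells and 4.14-fold in DMSO+LPS over DMSO cells. By the TMM scaling 6 of 9 members were called higher and none lower in SGC0946 cells (74.6% of all genes tested called, 35.8% higher and 38.8% lower), and 7 of 9 higher and none lower in DMSO cells (74.1% called, 35.4% higher and 38.7% lower). The titles of DMSO replicates 1 to 3, but of no DMSO+LPS library, carry the word reanalyzed. In the DMSO arm, LPS and whatever that word stands for therefore largely coincide. How LPS moved the other members depends on the scaling. The 6 LPS libraries had TMM factors of 0.686 to 0.716, and the other libraries 1.14 to 1.19. With library totals only, the median change of all genes was -0.81 in SGC0946 cells and -0.80 in DMSO cells, instead of -0.07 in each with TMM, and then 1 member was called higher and 7 lower in SGC0946 cells and 1 higher and 6 lower in DMSO cells.

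Ctsc was at 861, 1096 and 822 CPM in SGC0946+LPS cells, against 196, 226, 189 and 209 CPM in SGC0946 cells. In the other arm it was at 729, 829 and 776 CPM in DMSO+LPS cells, against 177, 202, 189 and 185 CPM in DMSO cells. The lowest LPS library was far above the highest unstimulated one in both arms. The change was 2.18 in SGC0946 cells and 2.05 in DMSO cells with TMM, and 1.43 and 1.32 with library totals. Relative to the median of all genes it was 2.24 in SGC0946 cells and 2.12 in DMSO cells with TMM. Ctsc was the only member called higher under both scalings.

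Ctsz was next, at 1459 ± 16.2 CPM in SGC0946+LPS and 930.0 ± 21.6 CPM in SGC0946 cells, and at 1476 ± 7.32 CPM in DMSO+LPS and 949 ± 6.80 CPM in DMSO cells (SD, n = 3 and 4). No LPS library overlapped an unstimulated one on this scale. The change was 0.65 in SGC0946 cells and 0.64 in DMSO cells with TMM, but -0.09 in each with library totals; relative to the median of all genes it was 0.72 and 0.71.

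The other called members had smaller changes, and each of them turned its sign with library totals. In SGC0946 cells the TMM values were 0.34 for Ctsl, 0.33 for Ctss, 0.29 for Ctsh and 0.12 for Ctsb, against -0.40, -0.41, -0.45 and -0.62 with library totals. In DMSO cells they were 0.52 for Ctsh, 0.48 for Ctsl, 0.38 for Ctss, 0.16 for Ctsb and 0.13 for Ctsa, against -0.21, -0.25, -0.35, -0.57 and -0.60 with library totals. The calls of the smallest of these changes rested on single libraries. Ctsb and Ctsh of SGC0946+LPS cells overlapped those of SGC0946 cells. Ctsb was not called without SGC0946 replicate 1, 2 or 3 or SGC0946+LPS replicate 1 or 2 (0.08 to 0.13, highest edgeR adjusted p = 0.230), nor Ctsh without SGC0946 replicate 1 or 3 or SGC0946+LPS replicate 2 or 3 (0.18 to 0.31, highest edgeR adjusted p = 0.245). In DMSO cells Ctsa was not called without DMSO replicate 1 or 2 or DMSO+LPS replicate 2 or 3 (0.11 to 0.13, highest edgeR adjusted p = 0.0996). Relative to the median of all genes these members were 0.19 to 0.41 higher in SGC0946 cells and 0.19 to 0.59 higher in DMSO cells under TMM.

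Ctsd and Lgmn were not called with TMM in either arm. Ctsd differed by -0.06 in SGC0946 cells and -0.07 in DMSO cells, and Lgmn by -0.04 in SGC0946 cells and 0.02 in DMSO cells. Against the median of all genes, Ctsd differed by 0.01 in SGC0946 cells, and Lgmn by 0.03 in SGC0946 cells and 0.09 in DMSO cells. With library totals both were called lower in both arms (Ctsd -0.80 in each, Lgmn -0.78 in SGC0946 cells and -0.71 in DMSO cells).

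**Figure D4:**
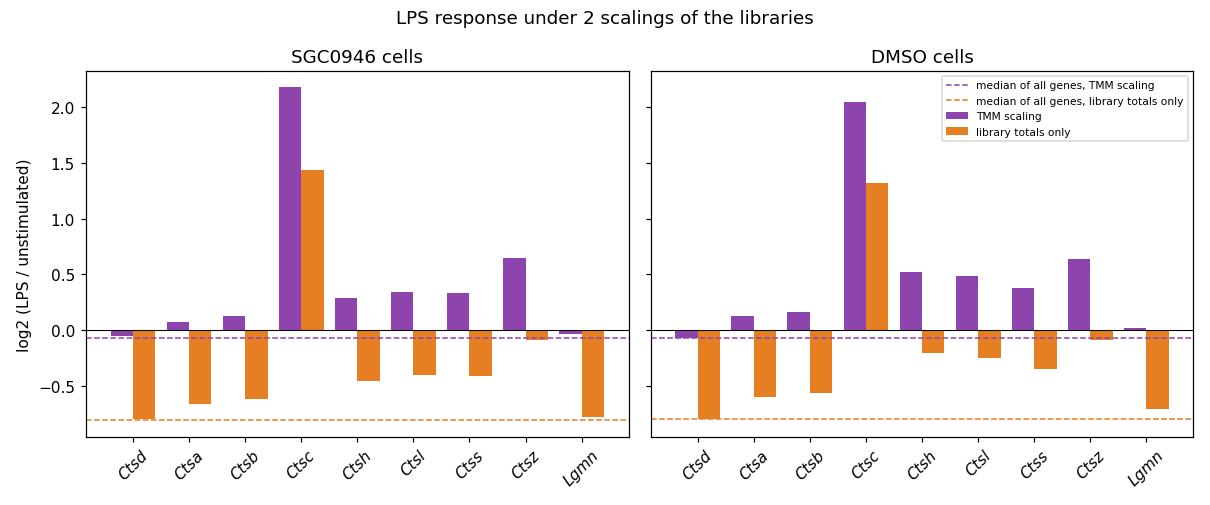
Log2 change with LPS over unstimulated cells for the 9 transcripts in SGC0946 cells (left) and DMSO cells (right), with TMM scaling (purple bars) and library totals only (orange bars); dashed lines give the median of all genes under each scaling. Ctsc is above 0 under both scalings, while most other bars change sign. The scaling shifts all genes and their median by nearly the same amount, so the distance of a bar from its dashed line stays the same by construction.

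The windows before the starts of Ctsc and Ctsd are shown as the members most and least changed by LPS relative to other genes. The window of Ctsc lies on chromosome 7, plus strand, at chr7:88277835-88278084. The annotated gene begins at chr7:88278024, so the RefSeq start used and the last part of this window lie inside it. The window holds 2 matches, in capitals, to GAGGAAG, a motif of the macrophage factor PU.1. They are read on the minus strand 197 to 191 and 150 to 144 bases before that start. The window of Ctsd lies on chromosome 7, minus strand, at chr7:142387828-142388077. It holds CACGTG 245 to 240 bases before the start and TCACGTGA 99 to 92 bases before it, and the TCACGTGA contains a CACGTG too. CACGTG is the core of the element bound by TFEB and related factors at lysosomal genes.
Ctsc: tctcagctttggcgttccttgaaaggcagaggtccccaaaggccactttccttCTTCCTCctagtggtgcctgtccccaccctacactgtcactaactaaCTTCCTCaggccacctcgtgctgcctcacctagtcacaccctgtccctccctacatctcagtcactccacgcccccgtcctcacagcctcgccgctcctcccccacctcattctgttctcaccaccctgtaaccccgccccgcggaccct
Ctsd: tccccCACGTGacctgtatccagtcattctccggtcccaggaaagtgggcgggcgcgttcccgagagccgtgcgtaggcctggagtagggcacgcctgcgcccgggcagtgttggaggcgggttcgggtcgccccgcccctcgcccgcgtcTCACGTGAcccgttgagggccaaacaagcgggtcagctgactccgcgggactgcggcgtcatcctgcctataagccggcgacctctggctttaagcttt
GAGGAAG was found in 10.6% of all windows, CACGTG in 6.02% and TCACGTGA in 0.785%. TCACGTGA also lay 13 to 6 bases before the alternative RefSeq start of Ctsa, and CACGTG in windows of Ctsl and Lgmn. These windows of Ctsa, Ctsl and Lgmn lie inside the annotated genes, before internal starts. No CACGTG was found in the windows of Ctsc, Ctss and Ctsz or in the other windows of Ctsa and Lgmn. Ctsb and Ctsh had no window.

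Tfeb, which encodes a factor that binds such elements, fell with LPS in both arms. Of 7 lysosomal gene regulators tested, 3 were called higher and 4 lower in each arm, where 74.6% of all genes tested were called in SGC0946 cells and 74.1% in DMSO cells. Tfeb was at 2.78 ± 0.95 CPM in SGC0946+LPS cells against 36.4 ± 1.61 CPM in SGC0946 cells, and at 3.74 ± 1.37 CPM in DMSO+LPS and 38.7 ± 1.51 CPM in DMSO cells, changes of -3.67 ± 0.17 and -3.39 ± 0.15. The related Mitf was at 365 ± 25.5 CPM in SGC0946+LPS and 68.6 ± 6.01 CPM in SGC0946 cells, and at 332 ± 16.2 CPM in DMSO+LPS and 70.1 ± 2.49 CPM in DMSO cells. Tfec rose as well, by 2.35 ± 0.06 in SGC0946 cells and 2.05 ± 0.06 in DMSO cells. Tfeb, Mitf and Tfec kept their directions with library totals, by which 2 of the 7 were higher and 5 lower in each arm.

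With GW3965 none of the 9 members was called against unstimulated cells, in SGC0946 cells (2.42% of all genes tested called, 1.32% higher and 1.11% lower) or in DMSO cells (2.55% called, 1.35% higher and 1.20% lower). DESeq2 called 1 in SGC0946 cells and none in DMSO cells, and 1 member in each arm had an unadjusted p under 0.05, Ctsl in both. Ctsl was at 1061, 1012 and 1031 CPM in SGC0946+GW3965 cells, against 1204, 1174, 1212 and 1242 CPM in SGC0946 cells, and these groups did not overlap. It was at 1041, 877 and 940.1 CPM in DMSO+GW3965 cells, against 1140.1, 1047, 1067 and 1002 CPM in DMSO cells, and these overlapped. The difference was -0.22 ± 0.06 in SGC0946 cells (edgeR adjusted p = 0.0537) and -0.16 ± 0.06 in DMSO cells (edgeR adjusted p = 0.170), lower in 3 of 3 mice in each arm. With the mouse as a block the value in SGC0946 cells was -0.23 and passed (edgeR adjusted p = 0.0306). Ctsd was at 16118, 16149 and 16091 CPM in SGC0946+GW3965 cells and 14918, 15063, 14649.8 and 16126 CPM in SGC0946 cells, a difference of 0.09 (edgeR adjusted p = 0.456, not called).

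The responses themselves were not called different between the arms for any member. The difference of the LPS responses, SGC0946 minus DMSO, ran over the members between -0.24 (Ctsh) and 0.13 (Ctsc), and that of the GW3965 responses between -0.09 (Ctss) and 0.08 (Ctsz). No member had an unadjusted p under 0.05 in either, DESeq2 called none, and over all genes 0.00832% and 0% were called by edgeR.

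Among the 6 other cathepsins in the table, 4 passed the filter. Ctsf, a cysteine cathepsin of low level here, was at 22.9 ± 3.72 CPM in SGC0946 cells and 15.7 ± 1.66 CPM in DMSO cells, and rose by 0.55 ± 0.13 (edgeR adjusted p = 0.0085). With GW3965 it rose by 0.69 ± 0.15 (edgeR adjusted p = 0.0099), and after LPS the difference was 0.53 ± 0.16 (edgeR adjusted p = 0.0506; with the mouse as a block 0.53, edgeR adjusted p = 0.0312). Ctso rose by 0.16 ± 0.05 in unstimulated cells (edgeR adjusted p = 0.0431), and Ctse, an aspartic protease at 6.88 ± 1.15 CPM in SGC0946+LPS and 4.45 ± 0.60 CPM in DMSO+LPS cells, by 0.64 ± 0.19 after LPS (edgeR adjusted p = 0.0455). Without mice 2 and 4 none of these genes was called in any of the 3 comparisons, and Ctsf changed by 0.28 in unstimulated cells. Ctsk, the protease of bone-resorbing osteoclasts, was at 12.04 ± 2.17 CPM in SGC0946 cells and 10.7 ± 2.00 CPM in DMSO cells and was not called. Ctsg, a neutrophil granule protease, and Ctsw, a protease of cytotoxic lymphocytes, averaged under 1 CPM in every group.

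Of 17 listed inhibitors of cathepsins, 15 were in the table and 7 passed the filter. Cst7, an endosomal cystatin that holds Ctsc and other cathepsins in check, was at 6.34, 5.29, 5.87 and 6.06 CPM in SGC0946 cells, against 8.73, 7.43, 8.28 and 8.48 CPM in DMSO cells. All SGC0946 libraries were below all DMSO libraries, and the change was -0.48 ± 0.14 (edgeR adjusted p = 0.0419). With GW3965 it was at 7.62, 4.23 and 5.64 CPM in SGC0946+GW3965 cells, against 12.5, 9.06 and 11.9 CPM in DMSO+GW3965 cells, a change of -0.94 ± 0.17 (edgeR adjusted p = 0.0019). That change was -0.87 without mice 2 and 4 (edgeR adjusted p = 0.0065), while the unstimulated one was then -0.47 (edgeR adjusted p = 0.217). After LPS, Cst7 was at 91.3 ± 8.58 CPM in SGC0946+LPS and 95.3 ± 10.9 CPM in DMSO+LPS cells, and the groups overlapped (-0.06 ± 0.12, edgeR adjusted p = 0.830). Against unstimulated cells this was 15.5-fold in the SGC0946 arm and 11.6-fold in the DMSO arm, and Cst7 stayed higher with library totals in both arms. Cst3 (cystatin C), the most abundant of those tested, was at 536 ± 25.6 CPM in SGC0946 cells and 559 ± 12.4 CPM in DMSO cells and was not called. Serpinb1a fell by 0.80 on the log2 scale in unstimulated SGC0946 cells (edgeR adjusted p = 0.0328), and Ctla2a, at 2.79 ± 0.94 CPM in SGC0946+LPS and 1.21 ± 0.54 CPM in DMSO+LPS cells, rose (edgeR adjusted p = 0.0465); neither was called without mice 2 and 4.

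Of the 12 genes that sort and activate lysosomal enzymes, 3 were called lower with SGC0946 in unstimulated cells, 3 after LPS and 2 with GW3965. None was called higher. Of all genes tested, 4.18%, 3.26% and 1.40% were called lower in these comparisons. The median change of the 12 was -0.08, -0.04 and -0.02. This list too was chosen with earlier results of these data known, so its counts are no independent test. Sort1, which encodes sortilin, averaged 39.5 ± 4.17 CPM in SGC0946 cells against 91.0 ± 8.75 CPM in DMSO cells, 31.02 ± 2.92 CPM in SGC0946+LPS and 69.5 ± 2.70 CPM in DMSO+LPS cells, and 33.4 ± 1.70 CPM in SGC0946+GW3965 cells and 75.7 ± 3.81 CPM in DMSO+GW3965 cells. The highest SGC0946 library of each condition was below the lowest DMSO library. The changes were -1.20 ± 0.08, -1.17 ± 0.10 and -1.18 ± 0.09 (edgeR adjusted p = 5.0e-09, 4.5e-07 and 1.8e-07). Without mice 2 and 4 they were -1.14, -1.07 and -1.09. Gnptab, a subunit of the enzyme that starts the mannose-phosphate tag, changed by -0.55 ± 0.08, -0.40 ± 0.10 and -0.52 ± 0.10 in the same order (edgeR adjusted p = 2.1e-04, 0.0148 and 0.00255), and was called without mice 2 and 4 in each (-0.42, -0.32 and -0.41). The 9 protease transcripts themselves had a median change of 0.03, 0.03 and 0.05 in these comparisons.

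In unstimulated cells, where 8.72% of all genes tested were called, 3 of 36 other lysosomal hydrolases were called higher and none lower. Of 16 subunits of the proton-pumping vacuolar ATPase 1 was called higher, and of 13 lysosomal membrane proteins 1 was called lower. That ATPase subunit was Atp6v0d2, which changed by 0.52 ± 0.10 (edgeR adjusted p = 0.0018), and Acp5 changed by 0.73 ± 0.19 (edgeR adjusted p = 0.0185). Both are also known from osteoclasts; the 5 osteoclast markers, Acp5 and Ctsk among them, summed to 19.7 to 23.02 CPM in SGC0946 cells and 13.9 to 18.9 CPM in DMSO cells, and their part in these results was not tested.

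Over the 20 libraries, the gene tested whose log2 CPM was most like Ctss was Gbp8 (Pearson r = 0.970), followed by Cd74 (r = 0.952). For Ctsb they were the lysosomal membrane protein gene Lamp1 (r = 0.916) and Gnas (r = 0.883). Ctsc was most like Ccdc71l (r = 0.997) and Ctsz most like Ccl4 (r = 0.995), while the closest to Lgmn, Arhgap15, reached r = 0.765. These values describe 20 libraries of which 6 were given LPS, share the same scaling, and carry no test.

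Several members share exon sequence with annotated neighbours, and the strand setting of the counting is not given in the sources used here. In the exons of the GENCODE basic annotation, 31.5% of Ctsd bases were shared with Gm49369, 28.2% of Ctsl with Gm47123 and Gm49230, 22.3% of Ctsa with Neurl2 and Pltp on the other strand, 16.3% of Ctsb with Fdft1 and 0.69% of Ctsz with Nelfcd; Ctsc, Ctsh, Ctss and Lgmn shared none. How many counts of these 5 genes come from the shared bases was not tested. In unstimulated cells Pltp was at 776 ± 136 CPM in SGC0946 cells and 563 ± 66.9 CPM in DMSO cells, and Fdft1 at 378 ± 46.1 CPM in SGC0946 cells and 388 ± 15.7 CPM in DMSO cells (SD, n = 4 each).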

How the data were processed

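The authors deposited a table of read counts and a table of RPKM per RefSeq transcript, plus a sample sheet. Reads (single-end) were aligned with STAR 2.5.2b to mm10 and handled with SAMtools 1.3.1, per the submitters' processing notes; which tool counted them, on what annotation and with which strand option, is not given in the sources used here. Values of RPKM, as deposited by the authors, equalled the count divided by 1 factor per transcript and 1 per library. This held to within a relative 3.05e-05 in 780 transcripts. Both factors were fitted to the values, and were not compared with transcript lengths or library totals. Of 35745 transcripts, 305 had no symbol (1.17% of counts) and were left out. The transcript of the highest total count was kept for each of 24342 symbols; the kept ones hold 57.3% of counts, and 50.1% of the counts of Ctsa, 51.5% of Ctsh, 50.04% of Ctss and 73.7% of Ctsc.

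Counts were tested with edgeR 4.0.16 (R 4.3.3; TMM, filterByExpr with a count minimum of 10, 12013 genes, 6 group means over all 20 libraries, quasi-likelihood F test, Benjamini-Hochberg adjusted p under 0.05). The step was run on simulated counts with known changes between SGC0946 and DMSO. That simulation held no shift in composition like that of LPS and no mouse effect, so it does not bear on either. Alternatives were library totals without TMM, DESeq2 1.42.0, limma 3.58.1 voom, other filters and fits, a mouse block, and libraries left out. The deposited sheet gives each of the 20 libraries a mouse equal to its replicate number. Deviations from group means correlated with a median r of 0.205 between libraries of the same mouse (0.0608 to 0.501, n = 46) and -0.121 between different mice (n = 120). The number was read as a shared mouse for the ratios in each mouse and for the mouse block, which was an alternative. The reported fit held no term for the mouse, so its p-values are unpaired.

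The 9 members and the gene lists were chosen with earlier results of these data known, so counts within any of them are no independent test. Beside the members, the rule named other cathepsins and inhibitors that passed the filter, up to 2 genes per direction and comparison of each other list by smallest adjusted p, and the 2 genes most alike to each member; Ctsg and Ctsw were named outside it. P-values of the reported fit set each difference against the spread between libraries within groups, and treat libraries of the same mouse as independent.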

Additional observations from a re-analysis of the deposited data

How the results depend on the processing

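Of 1440 member values under alternatives, 1367 kept their side of the threshold with no called value changing sign (73 of them, uncalled both times, changed sign), 44 lost and 16 gained a call, and 13 reversed, all 13 with library totals only in the LPS response. These were Ctsa -0.67, Ctsb -0.62, Ctsh -0.45, Ctsl -0.40, Ctss -0.41 and Ctsz -0.091 in SGC0946 cells, and Ctsa -0.60, Ctsb -0.57, Ctsh -0.21, Ctsl -0.25, Ctss -0.35, Ctsz -0.092 and Lgmn -0.71 in DMSO cells. Members called higher with LPS were then 1 in each arm and members called lower 7 in SGC0946 and 6 in DMSO cells; with a count minimum of 50, 1 was lower in DMSO cells (Ctsd). The number called between SGC0946 and DMSO in unstimulated cells was 2 in the reported fit, 3 with voom (Ctsh besides Ctss and Ctsl), 1 with no filter, 0 without mice 2 and 4 and 1 with titles without the word reanalyzed, and 1 to 2 with single libraries left out. After LPS it was 0 with no filter, 2 with the replicate block, 2 with voom, and 0 to 1 with single libraries left out. For GW3965 in SGC0946 cells it was 1 with library totals, DESeq2, a count minimum of 50, the block and voom each, and in DMSO cells 1 with voom. With single libraries left out, 4 to 6 members were called for LPS in SGC0946 cells and 6 to 7 in DMSO cells, and 0 to 0 for each GW3965 comparison and both differences of responses. The block changed 2 of 81 member calls, both given in the text, and no other. The cause of these changes was not tested.

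Counts over all genes moved by more than 1.5 times in some settings. Between SGC0946 and DMSO, 1048 genes were called in unstimulated cells, against 1663 with voom, 235 without mice 2 and 4, 103 with titles without the word reanalyzed and 578 to 1099 with single libraries left out. After LPS 856 were called, against 529 without mice 2 and 4 and 432 to 796 with single libraries left out, and with GW3965 437, against 703 with the block, 164 with only the compared groups, 250 without mice 2 and 4 and 232 to 454. For GW3965 in SGC0946 cells 291 were called, against 88 with only the compared groups, 178 without mice 2 and 4 and 134 to 485. In DMSO cells it was 306, against 520 with DESeq2, 531 with the block, 948 with voom, 888 with only the compared groups and 122 to 343. The difference of LPS responses gave 1, against 37 with DESeq2, 11 with no filter, 6 with the block, 5 with voom and 1 to 11.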

Other observations

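Markers of mast cells and basophils (4 genes) summed to 10.98 to 23.6 CPM in SGC0946 cells and 9.40 to 12.2 CPM in DMSO cells, and to 13.5 to 29.8 CPM in SGC0946+GW3965 cells and 9.98 to 13.6 CPM in DMSO+GW3965 cells. Only 1 of the 4 genes passed the filter on low counts, and 1 or 2 were at 0 in all libraries of each of these groups. Their part in the protease values was not tested.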
